A study of Homo sapiens with 14 samples.

Results

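The 50 genes described here are named genes of G2, the mitotic spindle, the kinetochore and cytokinesis, taken by symbol from the read count table of a bulk RNA-seq experiment. All 50 were found among the 63140 genes of the table, and all 50 were among the 18321 genes with enough counts to be tested. They were chosen by function, with earlier results of these data known. All libraries came from HEK293T, a kidney-derived human line that expresses the SV40 large T antigen, harvested 24 h after transfection. The miR-34a-RS group (n = 4, replicates 1, 2, 3 and 5) received a miR-34a duplex in which guide residues 13 and 14 were rSpacer, an abasic residue with a backbone but no base. The miR-34a-WT group (n = 5) received the same microRNA without that change, and the control group (n = 5) received AllStars, a negative control siRNA from Qiagen. The experiment asked what pairing outside the seed contributes to microRNA targeting. The labels do not state whether each replicate came from its own culture, so the p-values reflect only library-to-library spread, part or all of which may be technical.

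Cells in G2 accumulate cyclin B and hold CDK1 inactive through the kinase WEE1 until CDC25 phosphatases release it. In mitosis the kinetochore, built on CENPA chromatin, binds spindle microtubules, and the spindle checkpoint holds back the APC/C ubiquitin ligase until every chromosome is attached. CDC20 then activates the APC/C, cyclin B and securin are destroyed, and the central spindle directs cytokinesis. Transcripts of these genes peak together in G2 and M, under the MuvB complex and FOXM1, through promoter elements called CHR and CCAAT boxes. In bulk RNA, more cells in G2 or M and more of each transcript per cell cannot be told apart.

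The microRNA is shown because the groups differ in its residues 13 and 14. The mature sequence of hsa-miR-34a-5p in RefSeq (GRCh38.p14, chr1:9151735-9151756, minus strand) is given with the seed, bases 2 to 8, in capitals.
hsa-miR-34a-5p: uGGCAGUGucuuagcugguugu
Matches to this seed were searched in the longest annotated 3′ UTR of each gene in GENCODE 29 (GRCh38). A match of 7 or 8 bases was present in 6 of the 50 genes (12%), against 26.5% of the 13653 tested genes with a 3′ UTR, and none of the 6 was an 8mer. A longer 3′ UTR gives more places for a match, and the lengths of the 2 sets are not compared here. A further 5 genes had a 6mer at best, and 39 had no match. The 6 sites of 7 bases are shown because FOXM1 and HMMR, whose levels fell in 1 group, are among them. Capitals mark the match, and the preceding bases include the stretch where guide bases past the seed could pair.
HMMR, 7mer-A1: ttataatgttgtatttaattttaACTGCCA
FOXM1, 7mer-A1: tttccttagatcattatccagagACTGCCA
BIRC5, 7mer-A1: gcaggttagagcccctcgggccaACTGCCA
PRC1, 7mer-A1: ccgaagttgagatggcctgccctACTGCCA
BUB3, 7mer-m8: ggccaacctttggtcttcacagcCACTGCC
INCENP, 7mer-m8: gatgctgctgcagtgagtggttcCACTGCC
The 4-base partner of guide bases 13 to 16 (AGCT) was not found in the 19 bases upstream of the partner of guide base 8 at 11 of the 12 matches, 6mers included, nor in the 8 bases that precede it at the other, a 6mer near the start of the CCNA2 3′ UTR. A match is a stretch of letters and not a measured binding site.

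Libraries held 22.24 to 36.26 M counts, and values are given as CPM, counts per M library counts after TMM scaling. Of 5 genes listed for this line, VIM, KRT18, KRT8 and NEFM were present in all libraries and PAX2 was low, at 1.16 to 2.28 CPM. Summed over 5 fibroblast markers, levels were 28.3 to 34.4 CPM in miR-34a-RS libraries, 27.4 to 32.1 CPM in miR-34a-WT libraries and 25.0 to 34.3 CPM in control libraries, nearly all of it COL1A1. The blood cell markers PTPRC and CD3E had at most 1 count in any library.

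All but 2 of the genes were well expressed. Per kilobase of exon, control levels ran from 142 ± 9.5 CPM per kb for CKS2, a CDK-binding subunit, and 103 ± 3.4 CPM per kb for CDC20 to 8.26 ± 0.34 CPM per kb for CDC25C (SD, n = 5), with a median of 32.1 CPM per kb over the 50 genes. Below them stood PRC1 at 1.42 ± 0.15 CPM per kb and NUSAP1 at 0.322 ± 0.07 CPM per kb. In that order, 9 of 49 neighbouring pairs did not overlap between control libraries. The ranges of the other pairs overlapped, and their order within single libraries was not compared. NUSAP1 and PRC1 share 62.2% and 57.6% of their exon bases with a same-strand gene in GENCODE 29, AC087721.2 and AC068831.7, so their counts are uncertain. In total 13 genes, PRC1 among them, overlap a tested gene on the opposite strand, and the library kit does not mark strand. Without these 13, NUSAP1 and CENPA, which overlaps a tested gene on the same strand, 35 genes were left. Of these, 22 rose and 1 fell with miR-34a-RS, and 27 rose and 1 fell with miR-34a-WT (edgeR quasi-likelihood test, adjusted p under 0.05). Among all tested genes, overlapping ones included, 16.2% rose and 18.4% fell with miR-34a-RS. With miR-34a-WT 18.9% rose and 21.3% fell.

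Most of the G2/M genes were higher after either microRNA than after the control siRNA, by small amounts. With miR-34a-RS, 31 of 50 rose and 1 fell, and the median log2 fold change was 0.16, against -0.01 over all genes tested. In that comparison 16.2% of all tested genes rose and 18.4% fell (edgeR quasi-likelihood test, adjusted p under 0.05). With miR-34a-WT, 36 of 50 rose and 2 fell, with a median log2 fold change of 0.23, against -0.02 over all genes, of which 18.9% rose and 21.3% fell. Rises that passed the test ran from 0.12 (AURKA) to 0.78 (NEK2) with miR-34a-RS and from 0.13 (UBE2C) to 0.82 (NEK2) with miR-34a-WT. The microRNA and control libraries did not overlap for genes that stood higher (23) or lower (1) with miR-34a-RS (12.6% of all genes higher, 14.4% lower), and likewise for 31 and 1 with miR-34a-WT (13.8% and 15.1%). In the annotation 12 of the 50 genes have named pseudogenes or retrocopies, whose own levels averaged at most 0.507 CPM, and reads shared with such copies make these genes less certain. Both comparisons use the same 5 control libraries. Of the 39 genes with no seed match, 27 rose and 0 fell with miR-34a-RS and 30 rose and 1 fell with miR-34a-WT, where 23.3% and 27.5% of all genes with no match rose and 14.1% and 17.2% fell. Of the 6 genes with a 7-base match, 1 rose and 1 fell with miR-34a-RS, and 2 rose and 1 fell with miR-34a-WT. Over all 2696 tested genes with such a match at best, 14% rose and 34.2% fell with miR-34a-RS, and 16.6% rose and 37.2% fell with miR-34a-WT. An offset for GC content and transcript length, fitted on 17538 genes, moved the split over all of them. It became 4279 higher and 3303 lower with miR-34a-RS, from 2968 and 3378, and 4790 and 3503 with miR-34a-WT, from 3469 and 3904. Under it 35 of the 50 genes rose and 1 fell with miR-34a-RS, and 39 rose and 2 fell with miR-34a-WT. Their median log2 fold change was smaller, though, at 0.146 from 0.155 with miR-34a-RS and 0.193 from 0.226 with miR-34a-WT. The median over all genes went to 0.018 from -0.014 with miR-34a-RS and to 0.024 from -0.019 with miR-34a-WT.

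**Figure D1:**
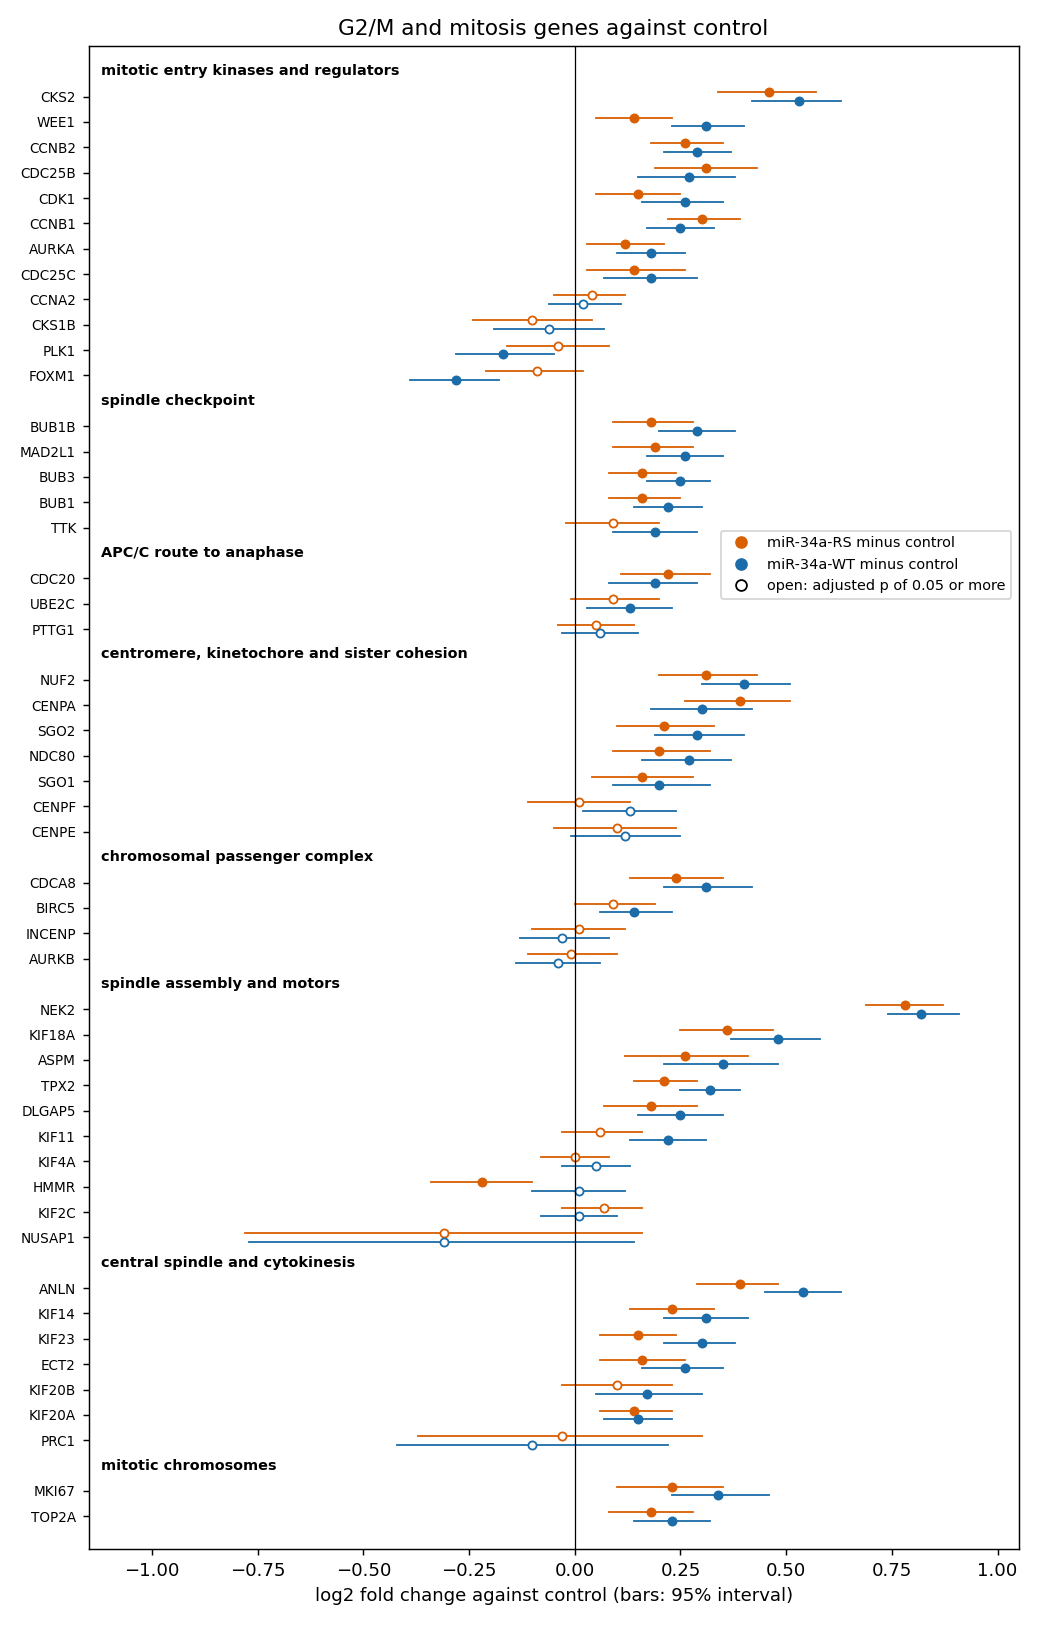
Log2 fold change against control (horizontal axis) of each of the 50 genes, grouped by role, for miR-34a-RS (orange, upper point) and miR-34a-WT (blue, lower point). Filled points passed the edgeR test, bars are 95% intervals, and NEK2 stands apart at 0.78 and 0.82 while most genes lie between 0 and 0.50.

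The shift was present in each library. Set against the control mean, the median log2 difference of the 50 genes was 0.184, 0.164, 0.122 and 0.140 in the miR-34a-RS libraries and 0.250, 0.246, 0.239, 0.185 and 0.199 in the miR-34a-WT libraries. In the control libraries it was 0.050, -0.013, 0.032, -0.018 and -0.051. Every microRNA library thus stood above every control library, and replicate 1 was the highest of each group. The median over all tested genes lay between -0.016 and 0.004 in every library. The 50 genes together took 0.868% to 0.902% of counts in miR-34a-RS libraries, 0.889% to 0.918% in miR-34a-WT libraries and 0.754% to 0.808% in control libraries. Mitochondrial transcripts took 2.19% to 3.08%, 2.6% to 3.30% and 2.75% to 3.10% of counts in the same order, lowest in miR-34a-RS replicate 2, and their part in the result was not tested.

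**Figure D2:**
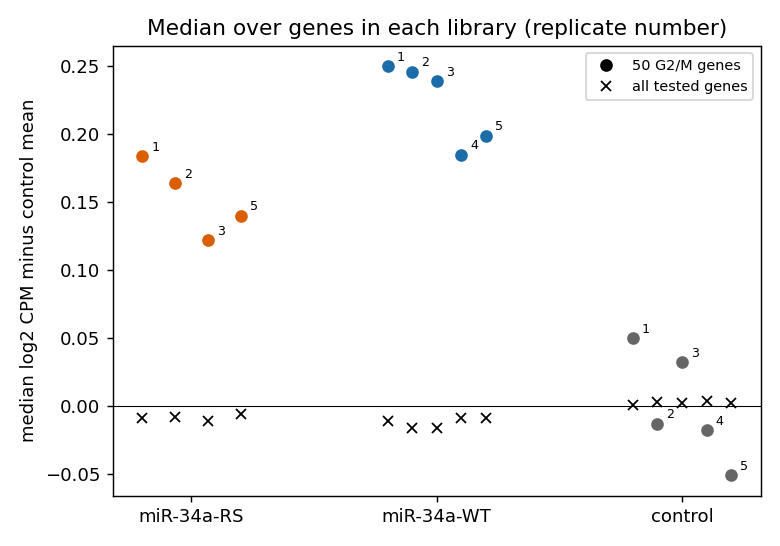
Median over the 50 genes (circles) and over all tested genes (crosses) of log2 CPM minus the control mean, per library, with replicate numbers. The 4 miR-34a-RS circles lie at 0.122 to 0.184, the 5 miR-34a-WT circles at 0.185 to 0.250 and the 5 control circles at -0.051 to 0.050.

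Among the 12 genes of mitotic entry, 8 rose with miR-34a-RS, and 8 rose and 2 fell with miR-34a-WT. The largest rise was in CKS2 (chr9:89311198-89316703, GRCh38), a small subunit that binds CDKs. CKS2 had 115, 125, 117 and 122 CPM in miR-34a-RS libraries, 123, 142, 119, 123 and 121 CPM in miR-34a-WT libraries and 94.8, 85.2, 90.1, 86.1 and 79.2 CPM in control libraries. Every microRNA library was above every control library, and miR-34a-WT replicate 2 was above the rest. Its log2 fold change against control was 0.46 ± 0.06 for miR-34a-RS (adjusted p = 3.56e-07) and 0.53 ± 0.05 for miR-34a-WT (adjusted p = 1.11e-08) by edgeR. CKS1B, its paralog, did not pass the test, at -0.10 for miR-34a-RS and -0.06 for miR-34a-WT.

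WEE1 (chr11:9573681-9593457) encodes the kinase that holds CDK1 inactive. WEE1 had 95.1, 91.1, 93.0 and 90.2 CPM in miR-34a-RS libraries, 106, 103, 108, 105 and 99.0 CPM in miR-34a-WT libraries and 83.3, 79.9, 88.4, 82.9 and 85.1 CPM in control libraries. The 3 groups did not overlap, with miR-34a-RS between the other two. Against control its log2 fold change was 0.14 ± 0.04 for miR-34a-RS (adjusted p = 0.0152) and 0.31 ± 0.04 for miR-34a-WT (adjusted p = 1.01e-06) by edgeR. CDK1 rose too, in log2 fold change, by 0.15 for miR-34a-RS and 0.26 for miR-34a-WT. So did 4 of the genes whose products activate it, the phosphatases CDC25B and CDC25C and the cyclins CCNB1 and CCNB2. CDC25B rose by 0.31 for miR-34a-RS and 0.27 for miR-34a-WT, and CDC25C by 0.14 for miR-34a-RS and 0.18 for miR-34a-WT. CCNB1 rose by 0.30 for miR-34a-RS and 0.25 for miR-34a-WT, and CCNB2 by 0.26 for miR-34a-RS and 0.29 for miR-34a-WT. AURKA, which activates PLK1 in G2, rose by 0.12 for miR-34a-RS and 0.18 for miR-34a-WT. The calls of CDC25C and AURKA with miR-34a-RS were lost without some single libraries. For CDC25C these were control replicates 3, 4 and 5 and miR-34a-RS replicates 2 and 5 (edgeR adjusted p = 0.0526 to 0.19). For AURKA these were control replicates 4 and 5 and miR-34a-RS replicates 2, 3 and 5 (edgeR adjusted p = 0.0525 to 0.0879). Cyclin A2, which acts in S phase and G2, did not pass the test, at 0.04 for miR-34a-RS and 0.02 for miR-34a-WT.

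FOXM1 and PLK1 went the other way. FOXM1 (chr12:2857681-2877155) encodes a transcription factor that activates G2/M genes, and its 3′ UTR holds the 7-base match shown above. FOXM1 had 163, 155, 187 and 172 CPM in miR-34a-RS libraries, 150, 135, 155, 149 and 152 CPM in miR-34a-WT libraries and 169, 176, 191, 184 and 184 CPM in control libraries. All miR-34a-WT libraries were below all control libraries, while the miR-34a-RS libraries overlapped both groups. The log2 fold change was -0.09 ± 0.05 for miR-34a-RS (adjusted p = 0.188) and -0.28 ± 0.05 for miR-34a-WT (adjusted p = 6.88e-05) by edgeR, so the fall passed the test with miR-34a-WT. Without miR-34a-RS replicate 3 it also passed with miR-34a-RS, at -0.146 (edgeR adjusted p = 0.0428). FOXM1 overlaps ITFG2 on the opposite strand, which averaged 24.6 CPM over all libraries.

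PLK1 (chr16:23677656-23690367), a kinase that drives mitotic entry and spindle assembly, had 173, 188, 214 and 193 CPM in miR-34a-RS libraries, 156, 168, 188, 183 and 185 CPM in miR-34a-WT libraries and 181, 198, 202, 203 and 202 CPM in control libraries. The groups overlapped, and miR-34a-WT replicate 1 and miR-34a-RS replicate 1 were the lowest of their groups, as was control replicate 1. The log2 fold change was -0.04 ± 0.06 for miR-34a-RS (adjusted p = 0.656) and -0.17 ± 0.06 for miR-34a-WT (adjusted p = 0.0199) by edgeR. The miR-34a-WT call was lost without control replicate 2, 3 or 4 or miR-34a-WT replicate 1 or 2 (edgeR adjusted p = 0.0598 to 0.0965), and with the GC and length offset, where the change was -0.028 (edgeR adjusted p = 0.594).

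The 5 spindle checkpoint genes all rose with miR-34a-WT, and 4 of them rose with miR-34a-RS. BUB1B (chr15:40161023-40221136) encodes BUBR1, part of the complex that inhibits CDC20. BUB1B had 123, 115, 119 and 114 CPM in miR-34a-RS libraries, 132, 126, 131, 118 and 125 CPM in miR-34a-WT libraries and 111, 105, 101, 103 and 98.1 CPM in control libraries. Neither microRNA group overlapped the control libraries. Against control the log2 change was 0.18 ± 0.05 for miR-34a-RS (adjusted p = 0.00302) and 0.29 ± 0.04 for miR-34a-WT (adjusted p = 9.62e-06) by edgeR. MAD2L1, which binds CDC20 in the same complex, rose by 0.19 for miR-34a-RS and 0.26 for miR-34a-WT, BUB3 by 0.16 for miR-34a-RS and 0.25 for miR-34a-WT and the kinase BUB1 by 0.16 for miR-34a-RS and 0.22 for miR-34a-WT. TTK, the kinase MPS1 that starts the checkpoint signal, rose by 0.19 with miR-34a-WT and was at 0.09 with miR-34a-RS (edgeR adjusted p = 0.185).

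On the route into anaphase, 1 of 3 genes rose with miR-34a-RS and 2 of 3 with miR-34a-WT. CDC20 (chr1:43358955-43363203), the APC/C activator that the checkpoint restrains, had 215, 245, 264 and 248 CPM in miR-34a-RS libraries, 218, 235, 246, 242 and 248 CPM in miR-34a-WT libraries and 201, 204, 217, 208 and 215 CPM in control libraries. All miR-34a-WT libraries were above all control libraries, and miR-34a-RS replicate 1 lay within the control range. Its log2 fold change was 0.22 ± 0.05 for miR-34a-RS (adjusted p = 0.00196) and 0.19 ± 0.05 for miR-34a-WT (adjusted p = 0.00366) by edgeR. UBE2C, the ubiquitin-conjugating enzyme of the APC/C, rose by 0.13 with miR-34a-WT and was at 0.09 with miR-34a-RS (edgeR adjusted p = 0.177). Its miR-34a-WT call was lost without control replicate 1 or 2 or miR-34a-WT replicate 4 or 5 (edgeR adjusted p = 0.0592 to 0.0906). PTTG1, the separase inhibitor securin, did not pass, at 0.05 for miR-34a-RS and 0.06 for miR-34a-WT.

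Of the 7 genes of the centromere, kinetochore and sister cohesion, 5 rose in each comparison. NUF2 (chr1:163266576-163355764) encodes a subunit of the NDC80 complex, which holds microtubules. NUF2 had 94.8, 93.8, 82.1 and 91.2 CPM in miR-34a-RS libraries, 100, 104, 91.7, 89.4 and 96.1 CPM in miR-34a-WT libraries and 79.9, 72.2, 72.5, 70.6 and 68.4 CPM in control libraries. The log2 change of NUF2 was 0.31 ± 0.06 for miR-34a-RS (adjusted p = 7.76e-05) and 0.40 ± 0.05 for miR-34a-WT (adjusted p = 8.52e-07) by edgeR. CENPA (chr2:26764289-26801067), the histone H3 variant that marks centromeres, had 37.4, 34.3, 33.5 and 31.8 CPM in miR-34a-RS libraries, 31.6, 34.1, 33.2, 31.4 and 31.0 CPM in miR-34a-WT libraries and 26.5, 24.4, 28.4, 27.8 and 23.5 CPM in control libraries. For both genes all microRNA libraries were above all control libraries. The log2 fold change of CENPA was 0.39 ± 0.06 for miR-34a-RS (adjusted p = 1.45e-05) and 0.30 ± 0.06 for miR-34a-WT (adjusted p = 0.000144) by edgeR. CENPA shares 6.96% of its exon bases with SLC35F6 on the same strand, which averaged 49.0 CPM.

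NDC80, the partner of NUF2, rose by 0.20 for miR-34a-RS and 0.27 for miR-34a-WT. The shugoshins, which protect sister cohesion, rose as well, SGO1 by 0.16 for miR-34a-RS and 0.20 for miR-34a-WT and SGO2 by 0.21 for miR-34a-RS and 0.29 for miR-34a-WT. The SGO1 call with miR-34a-RS was lost without control replicate 3 or 5 or miR-34a-RS replicate 1 or 2 (edgeR adjusted p = 0.0511 to 0.0946). CENPE, a kinetochore motor, did not pass, at 0.10 for miR-34a-RS and 0.12 for miR-34a-WT. CENPF, a large kinetochore and nuclear matrix protein, was at 0.01 for miR-34a-RS and 0.13 for miR-34a-WT, and with miR-34a-WT its edgeR adjusted p was 0.0593. Without control replicate 1, which had the highest CENPF value of the control group, both kinetochore genes passed with miR-34a-WT, CENPE at 0.182 (edgeR adjusted p = 0.0128) and CENPF at 0.18 (edgeR adjusted p = 0.00468). CENPE also passed with miR-34a-WT without miR-34a-WT replicate 4 (0.17, edgeR adjusted p = 0.0478), and with miR-34a-RS without control replicate 1 (0.159, edgeR adjusted p = 0.0428). CENPF passed with miR-34a-WT without miR-34a-WT replicate 2, 3 or 4 or miR-34a-RS replicate 1 (edgeR adjusted p = 0.0256 to 0.0356). It also passed with miR-34a-WT with RLE factors, with no or a stricter filter on low counts, by DESeq2, with the replicate block and with the GC and length offset, with or without the block, at 0.095 to 0.144 (adjusted p = 0.000928 to 0.0392). With the block CENPE passed too, at 0.124 (edgeR adjusted p = 0.00297).

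In the chromosomal passenger complex, which corrects faulty attachments, 1 of 4 genes rose with miR-34a-RS and 2 of 4 with miR-34a-WT. CDCA8 (chr1:37692418-37709719), which encodes the targeting subunit borealin, had 102, 112, 121 and 119 CPM in miR-34a-RS libraries, 108, 121, 129, 120 and 119 CPM in miR-34a-WT libraries and 92.0, 95.5, 99.7, 98.5 and 95.4 CPM in control libraries. The microRNA libraries were all above the control libraries, lowest in replicate 1 of each group. By edgeR the log2 fold change was 0.24 ± 0.05 for miR-34a-RS (adjusted p = 0.000985) and 0.31 ± 0.05 for miR-34a-WT (adjusted p = 1.87e-05). BIRC5, the survivin subunit, rose by 0.14 with miR-34a-WT and was at 0.09 with miR-34a-RS (edgeR adjusted p = 0.115), or 0.13 without miR-34a-RS replicate 1 (edgeR adjusted p = 0.036). The catalytic subunit AURKB did not pass, at -0.01 for miR-34a-RS and -0.04 for miR-34a-WT, nor did the scaffold INCENP, at 0.01 for miR-34a-RS and -0.03 for miR-34a-WT.

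The spindle group held the largest rise of all 50 genes, in NEK2 (chr1:211658657-211675630), a kinase that separates the centrosomes before mitosis. NEK2 had 118, 121, 112 and 113 CPM in miR-34a-RS libraries, 118, 124, 123, 115 and 117 CPM in miR-34a-WT libraries and 69.3, 66.7, 68.5, 66.1 and 67.7 CPM in control libraries. Every microRNA library was over 1.5 times every control library, and the microRNA groups overlapped. The log2 fold change was 0.78 ± 0.04 for miR-34a-RS (adjusted p = 2.68e-13) and 0.82 ± 0.04 for miR-34a-WT (adjusted p = 2.5e-14) by edgeR, which is 1.72 and 1.77 times the control level. KIF18A (chr11:28020620-28108308), a kinesin that limits chromosome movement on the spindle, had 54.2, 50.7, 50.2 and 47.1 CPM in miR-34a-RS libraries, 58.5, 56.0, 55.8, 51.2 and 52.4 CPM in miR-34a-WT libraries and 41.5, 38.5, 40.5, 38.9 and 37.4 CPM in control libraries. It too was higher in all microRNA libraries than in all control libraries, with log2 fold changes of 0.36 ± 0.05 for miR-34a-RS (adjusted p = 5.67e-06) and 0.48 ± 0.05 for miR-34a-WT (adjusted p = 2.36e-08) by edgeR. KIF18A overlaps METTL15 on the opposite strand, which averaged 20.7 CPM.

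**Figure D3:**
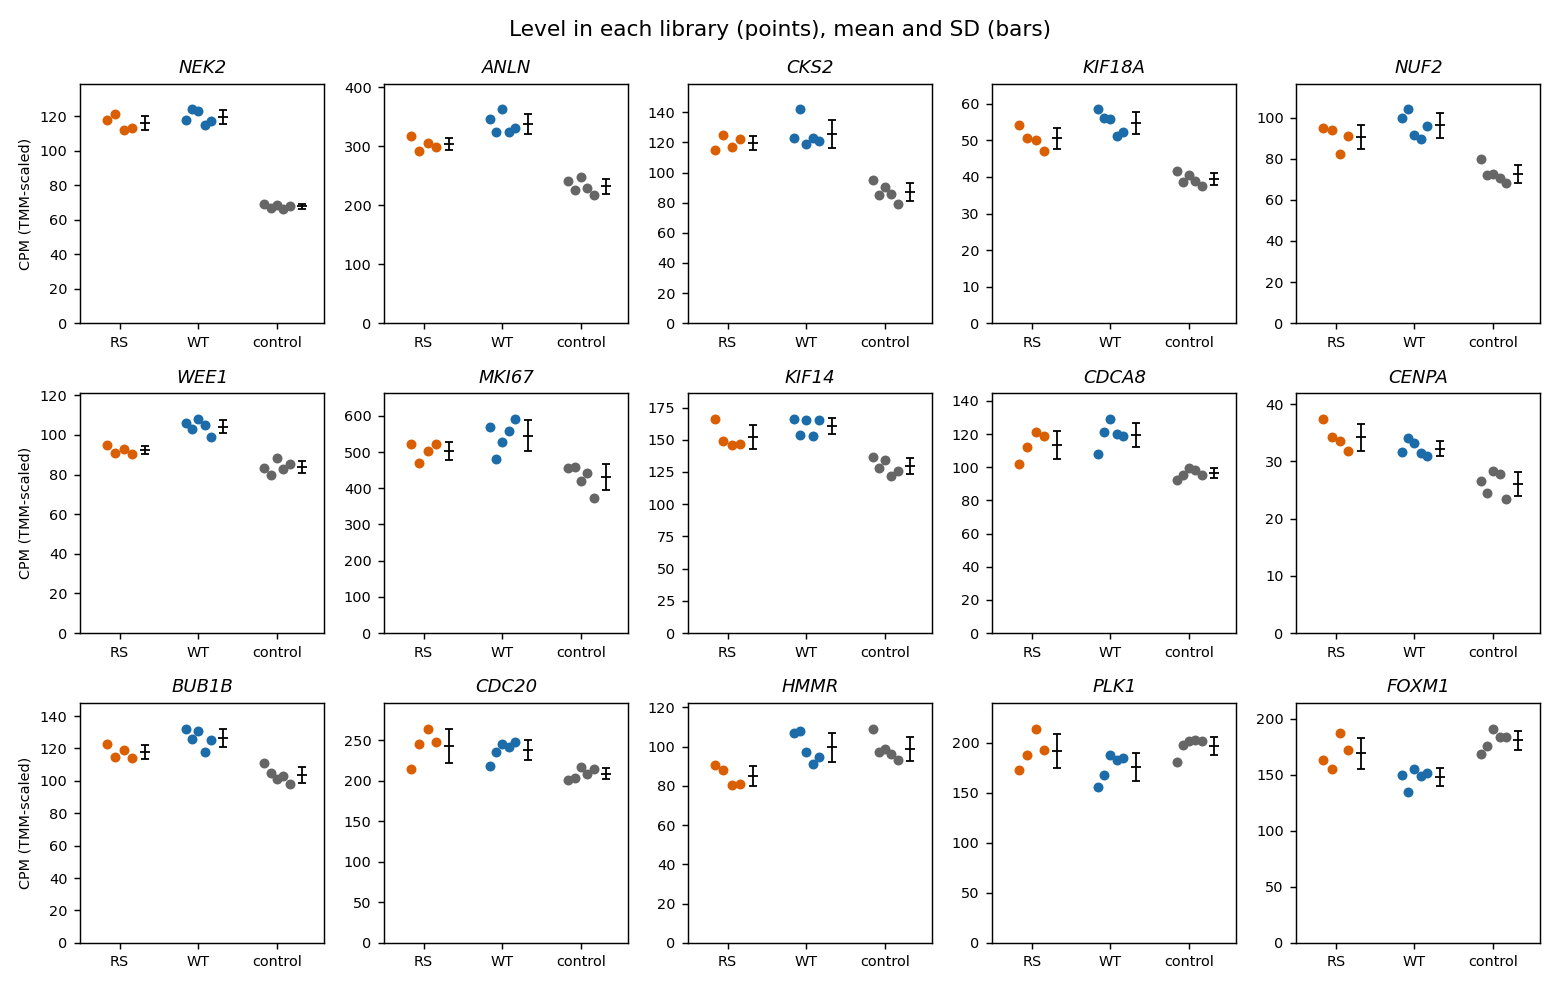
CPM (vertical axes, from 0) of the 15 genes named with all their values, in each miR-34a-RS (orange), miR-34a-WT (blue) and control (grey) library, with the mean and SD beside the points. NEK2 shows the widest gap to control, HMMR is low in miR-34a-RS libraries only, and PLK1 and FOXM1 lie lowest in miR-34a-WT libraries.

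Of the other spindle genes, TPX2, which activates AURKA and nucleates microtubules, rose by 0.21 for miR-34a-RS and 0.32 for miR-34a-WT. ASPM, which acts at spindle poles, rose by 0.26 for miR-34a-RS and 0.35 for miR-34a-WT, and DLGAP5, which stabilises kinetochore fibres, rose by 0.18 for miR-34a-RS and 0.25 for miR-34a-WT. KIF11, the motor that pushes the poles apart, rose by 0.22 with miR-34a-WT and was at 0.06 with miR-34a-RS (edgeR adjusted p = 0.308). KIF2C, a microtubule depolymerase, was at 0.07 for miR-34a-RS and 0.01 for miR-34a-WT, and the chromokinesin KIF4A was at 0.00 for miR-34a-RS and 0.05 for miR-34a-WT, and neither passed, although KIF2C passed with miR-34a-RS at 0.123 (edgeR adjusted p = 0.0341) without miR-34a-RS replicate 1. NUSAP1 was at -0.31 for miR-34a-RS and -0.31 for miR-34a-WT, with only 10 to 36 counts per library.

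HMMR (chr5:163460203-163491945), a spindle pole adaptor with a 7-base seed match in its 3′ UTR, was the 1 gene of the 50 that fell with miR-34a-RS. HMMR had 90.8, 88.0, 80.6 and 81.0 CPM in miR-34a-RS libraries, 107, 108, 97.4, 90.9 and 94.5 CPM in miR-34a-WT libraries and 109, 97.2, 98.6, 96.0 and 93.1 CPM in control libraries. All miR-34a-RS libraries were below all libraries of both other groups, which overlapped. The log2 fold change against control was -0.22 ± 0.06 for miR-34a-RS (adjusted p = 0.00501) and 0.01 ± 0.05 for miR-34a-WT (adjusted p = 0.904) by edgeR. With the GC and length offset the miR-34a-WT value was -0.098 (edgeR adjusted p = 0.0279).

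Of the 7 genes of the central spindle and cytokinesis, 5 rose with miR-34a-RS and 6 with miR-34a-WT. ANLN (chr7:36389806-36453791) encodes anillin, the scaffold of the contractile ring. ANLN had 317, 293, 305 and 299 CPM in miR-34a-RS libraries, 347, 324, 363, 325 and 331 CPM in miR-34a-WT libraries and 241, 226, 248, 229 and 217 CPM in control libraries. The 3 groups did not overlap, in the order miR-34a-WT, miR-34a-RS and control. Its log2 fold change was 0.39 ± 0.05 for miR-34a-RS (adjusted p = 3.84e-07) and 0.54 ± 0.04 for miR-34a-WT (adjusted p = 3.18e-10) by edgeR. ANLN overlaps KIAA0895 on the opposite strand, which averaged 59.4 CPM.

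KIF14 (chr1:200551497-200620734), a kinesin that brings citron kinase to the midbody, had 166, 149, 146 and 147 CPM in miR-34a-RS libraries, 166, 154, 165, 153 and 165 CPM in miR-34a-WT libraries and 137, 128, 134, 122 and 126 CPM in control libraries. All microRNA libraries were above all control libraries. The log2 fold change was 0.23 ± 0.05 for miR-34a-RS (adjusted p = 0.000573) and 0.31 ± 0.05 for miR-34a-WT (adjusted p = 6.38e-06) by edgeR. ECT2, the exchange factor that activates RhoA at the cleavage site, rose by 0.16 for miR-34a-RS and 0.26 for miR-34a-WT, and KIF23, the kinesin of centralspindlin, rose by 0.15 for miR-34a-RS and 0.30 for miR-34a-WT. KIF20A rose by 0.14 for miR-34a-RS and 0.15 for miR-34a-WT, but it overlaps CDC23 and BRD8 on the opposite strand, the higher of which averaged 171 CPM. KIF20B rose by 0.17 with miR-34a-WT and was at 0.10 with miR-34a-RS (edgeR adjusted p = 0.23), or 0.161 without control replicate 1 (edgeR adjusted p = 0.0329). Its miR-34a-WT call was lost without control replicate 4 or 5 or miR-34a-WT replicate 1 (edgeR adjusted p = 0.0622 to 0.0797), and with the GC and length offset (0.057, edgeR adjusted p = 0.294). PRC1, the bundler of central spindle microtubules, was at -0.03 for miR-34a-RS and -0.10 for miR-34a-WT and did not pass.

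Both genes of mitotic chromosomes rose in both comparisons. MKI67 (chr10:128096659-128126385), which encodes the chromosome surface protein Ki-67, had 521, 470, 502 and 522 CPM in miR-34a-RS libraries, 569, 481, 528, 558 and 591 CPM in miR-34a-WT libraries and 455, 460, 420, 443 and 373 CPM in control libraries. The microRNA libraries were all above the control libraries, and the spread within groups was wide. Log2 changes against control were 0.23 ± 0.06 for miR-34a-RS (adjusted p = 0.0041) and 0.34 ± 0.06 for miR-34a-WT (adjusted p = 2.41e-05) by edgeR. TOP2A, which untangles sister chromatids, rose by 0.18 for miR-34a-RS and 0.23 for miR-34a-WT.

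Set directly against miR-34a-WT, miR-34a-RS differed past the test in 2 of the 50 genes, WEE1 and HMMR, both lower. The log2 difference was negative for 38 of 50 genes, a count that was not tested, against 51.2% of all genes, with a median of -0.06 against 0.00 over all genes tested. Past the edgeR threshold, 0 rose and 2 fell, in a comparison where 1.03% of all genes rose and 0.535% fell. At an unadjusted p under 0.05, 2 were higher and 12 lower, against 6.38% and 5.78% of all genes. By DESeq2, 1 rose and 6 fell, against 1.52% and 1.26% of all genes. The 2 that fell were WEE1, by 0.17 ± 0.04 (edgeR adjusted p = 0.0401), and HMMR, by 0.23 ± 0.06 (edgeR adjusted p = 0.0465), on the log2 scale, both without overlap between the groups.

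Neither call held in every setting. WEE1 lost it with upper-quartile factors, with no filter on low counts, in the fit of the 2 groups alone and with the GC and length offset (edgeR adjusted p = 0.0555 to 0.201). It also lost it without control replicate 2 or 4, miR-34a-RS replicate 2, 3 or 5, or miR-34a-WT replicate 1, 2, 3 or 4 (edgeR adjusted p = 0.0528 to 0.14). HMMR lost it with upper-quartile factors and in the fit of the 2 groups alone (edgeR adjusted p = 0.0704 and 0.0667), and without control replicate 2, 3 or 4, miR-34a-RS replicate 2, 3 or 5, or miR-34a-WT replicate 1, 2, 3 or 5 (edgeR adjusted p = 0.0545 to 0.195). The differences themselves stayed between -0.19 and -0.11 for WEE1 and between -0.26 and -0.18 for HMMR over 23 alternatives. For the 48 genes without a call, the 95% intervals together ran from -0.49 to 0.50, and 45 of them lay within 0.3 of 0 on either side.

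The replicate numbers paired the libraries of these 2 groups, and with the number as a block 2 genes rose and 11 fell, where 3.41% of all genes rose and 3.43% fell. The rises were FOXM1 at 0.19 (edgeR adjusted p = 0.000614) and PLK1 at 0.14 (edgeR adjusted p = 0.0101). Both genes fell with miR-34a-WT against control, a comparison that uses the same miR-34a-WT libraries. Besides WEE1 and HMMR, the falls with the block were KIF11 at -0.16, ANLN at -0.16, KIF23 at -0.16, CENPF at -0.14, KIF18A at -0.13, TTK at -0.13, BUB1B at -0.12, TPX2 at -0.11 and ECT2 at -0.11 (edgeR adjusted p = 0.00138 to 0.0413). They span the checkpoint, the kinetochore, spindle motors and cytokinesis. Without the block FOXM1 was at 0.19 (edgeR adjusted p = 0.079) and PLK1 at 0.13 (edgeR adjusted p = 0.389). FOXM1 also passed without the block under upper-quartile factors, no filter on low counts and DESeq2, at 0.189 to 0.206 (adjusted p = 0.0287 to 0.0402). Without miR-34a-RS replicate 1 and without the block, FOXM1 rose by 0.217 and KIF11 fell by 0.193 (edgeR adjusted p = 0.0272 and 0.0116). Libraries did not overlap for 8 genes, all lower with miR-34a-RS (WEE1, BUB1, BUB3, TPX2, HMMR, KIF4A, ANLN and KIF23). Over all genes, 2.66% were higher and 2.16% lower without overlap.

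**Figure D4:**
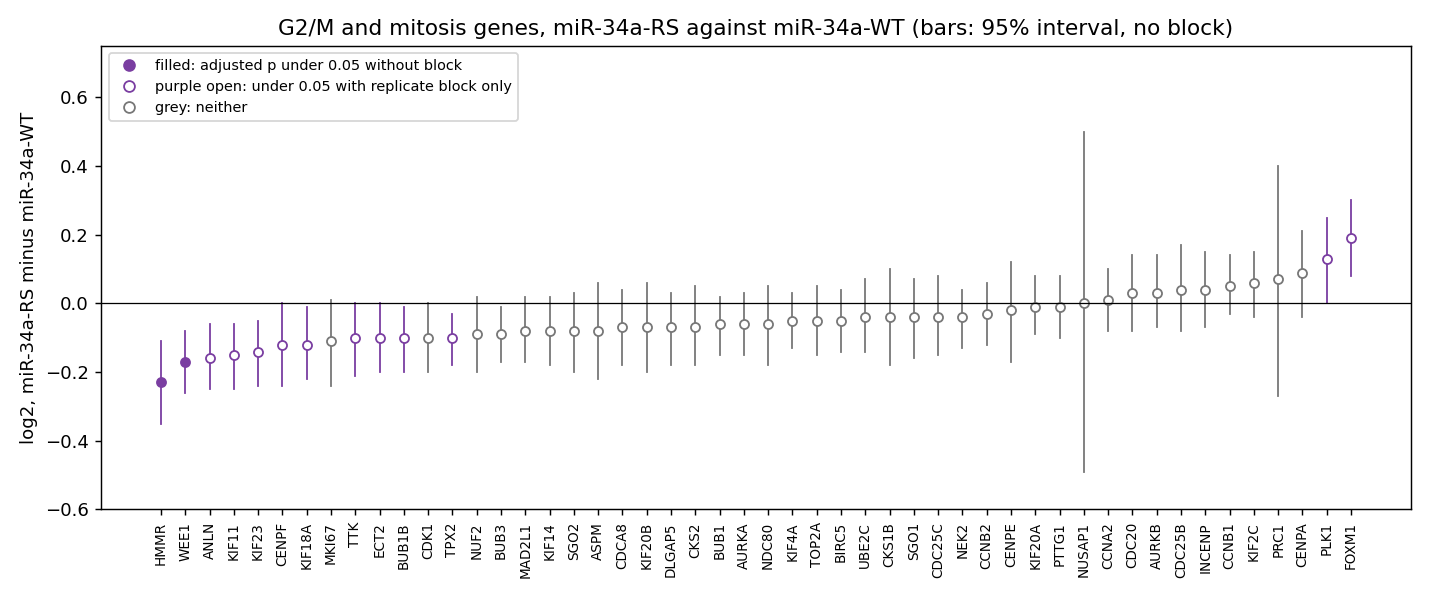
Log2 difference of miR-34a-RS minus miR-34a-WT for the 50 genes, in order of size, with 95% intervals from the fit without block. HMMR and WEE1 (filled) passed without the block, open purple points passed only with it, and 38 of 50 points lie below 0.

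A list of 97 other mitotic genes, 96 of them tested, moved in both directions. With miR-34a-RS 30 rose and 10 fell, with a median log2 fold change of 0.07, and with miR-34a-WT 40 rose and 14 fell, with a median of 0.11. Over all tested genes, 16.2% rose and 18.4% fell with miR-34a-RS, and 18.9% rose and 21.3% fell with miR-34a-WT. Between the microRNAs 1.03% of all genes rose and 0.535% fell. In miR-34a-RS against miR-34a-WT 1 rose, ARPP19 at 0.37, and 1 fell, CDC25A at -0.19 (edgeR adjusted p = 0.00126 and 0.0152), both named after their values were seen. With miR-34a-WT the largest rises were in ANAPC13, a small APC/C subunit, at 0.49 for miR-34a-RS and 0.61 for miR-34a-WT, and CKAP2L, a spindle protein, at 0.41 for miR-34a-RS and 0.53 for miR-34a-WT. With miR-34a-WT the largest falls were in CDC23, an APC/C subunit, at -0.82 for miR-34a-RS and -0.81 for miR-34a-WT, and MYH9, a non-muscle myosin heavy chain, at -0.76 for miR-34a-RS and -0.77 for miR-34a-WT. CDC23 overlaps KIF20A on the opposite strand, and KIF20A rose. With miR-34a-RS the largest fall of the list was in CDC25A, a phosphatase that activates CDKs, at -0.88, where the miR-34a-WT value was -0.70. By role, genes of the list that rose and fell with miR-34a-WT numbered 10 and 1 of 15 for the spindle, 6 and 2 of 10 for cohesin and separase, 4 and 1 of 8 for condensin, 11 and 2 of 29 for the kinetochore, 4 and 2 of 17 for the APC/C, 2 and 2 of 6 for cytokinesis and 3 and 4 of 11 for mitotic entry.

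Promoters are shown because these genes moved together. RefSeq promoter windows (GRCh38.p14, 250 bases before to 50 after the start) were matched for 42 of the 50 genes, in 53 windows. The CHR words TTTGAA or TTCGAA, on either strand, were in 67.9% of these windows, against 11.9% of the 16720 windows of all tested genes. The word CCAAT, on either strand, was in 79.2% against 34.3%, and a pair or more of CCAAT words in 45.3% against 11.8%. Both CHR and CCAAT words were in 58.5% against 4.76%. The windows of CKS2 and NEK2 (large rises), PLK1 and HMMR are printed 5′ to 3′ with these words, or their reverse complements, in capitals. PLK1 fell with miR-34a-WT, a call lost in 7 of 23 alternatives.
CKS2, chr9:89310945-89311244, plus strand: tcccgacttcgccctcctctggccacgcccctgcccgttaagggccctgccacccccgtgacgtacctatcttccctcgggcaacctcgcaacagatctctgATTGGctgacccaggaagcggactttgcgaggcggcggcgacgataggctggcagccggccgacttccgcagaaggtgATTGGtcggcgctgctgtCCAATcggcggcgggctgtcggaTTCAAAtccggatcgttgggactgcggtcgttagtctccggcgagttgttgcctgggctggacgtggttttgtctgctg
NEK2, chr1:211675572-211675871, minus strand: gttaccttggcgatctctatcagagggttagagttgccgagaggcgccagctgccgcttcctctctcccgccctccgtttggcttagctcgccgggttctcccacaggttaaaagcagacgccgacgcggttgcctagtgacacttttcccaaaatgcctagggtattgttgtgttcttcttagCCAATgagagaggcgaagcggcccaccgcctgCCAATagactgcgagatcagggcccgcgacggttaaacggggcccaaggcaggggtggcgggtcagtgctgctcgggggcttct
PLK1, chr16:23678639-23678938, plus strand: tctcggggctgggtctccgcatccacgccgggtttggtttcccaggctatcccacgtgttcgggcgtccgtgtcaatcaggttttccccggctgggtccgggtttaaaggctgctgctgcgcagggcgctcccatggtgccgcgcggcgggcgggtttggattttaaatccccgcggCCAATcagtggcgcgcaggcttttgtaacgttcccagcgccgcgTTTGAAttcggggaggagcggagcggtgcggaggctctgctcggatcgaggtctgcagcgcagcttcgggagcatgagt
HMMR, chr5:163460382-163460681, plus strand: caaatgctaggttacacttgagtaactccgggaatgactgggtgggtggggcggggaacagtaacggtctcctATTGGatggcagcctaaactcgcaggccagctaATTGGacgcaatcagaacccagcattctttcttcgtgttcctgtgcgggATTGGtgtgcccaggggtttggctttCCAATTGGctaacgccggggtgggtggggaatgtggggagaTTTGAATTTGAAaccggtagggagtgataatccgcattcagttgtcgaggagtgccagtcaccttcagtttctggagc
The CHR word lay 29 bases before the start in both CKS2 and PLK1, and its part in their changes was not tested. The NEK2 window held a pair of CCAAT words and neither TTTGAA nor TTCGAA. Other forms of the CHR element were not searched, so genes without these words may still hold one. Of the 33 genes with a CHR word, 23 rose and 1 fell with miR-34a-RS, and 25 rose and 1 fell with miR-34a-WT. Of the 9 without it, 4 rose in each comparison. Among all tested genes, with or without the word, 16.2% rose and 18.4% fell with miR-34a-RS. With miR-34a-WT 18.9% rose and 21.3% fell. Shares among all tested genes split by the word are not given here. Median log2 fold changes were 0.18 with and 0.10 without the word for miR-34a-RS, and 0.26 and 0.12 for miR-34a-WT. The difference between genes with and without the word was not tested.

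**Figure D5:**
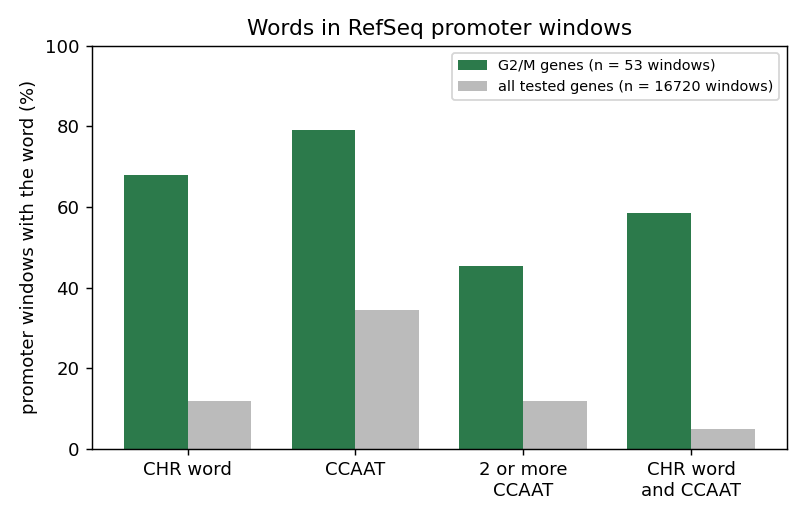
Percent of RefSeq promoter windows that hold each word, for the G2/M genes (green, 53 windows) and all tested genes (grey, 16720 windows). Both words together are in 58.5% of the G2/M windows and 4.76% of all windows.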

How the data were processed

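HEK293T RNA was made into 14 TruSeq RNA v2 libraries, per the labels' protocols. The authors deposited raw gene-level counts in a single table. The submitters' processing notes name Subread 2.0.3 with featureCounts, STAR 2.7.11a, edgeR 3.42.4 and GRCh38. The annotation release and the strand setting are not given in the sources used here.

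The gene test was edgeR 4.0.16 under R 4.3.3 (TMM, filterByExpr by group, robust glmQLFit and glmQLFTest, 14 libraries in one fit of 3 group means), with Benjamini-Hochberg adjustment over 18321 genes at 0.05. Depth was 22.24 to 36.26 M counts and the common biological coefficient of variation 0.0615. All 26 replicate pairs differed beyond sampling noise (chi-square per degree of freedom 2.72 to 14.3). Log2 fold changes are given ± SE with 95% intervals from the t distribution. The test was tried on simulated data first. Alternatives were other scaling factors and filters, DESeq2 1.42.0, 2-group fits, a replicate block, a GC and length offset, and each library left out.

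Deviations from group means were correlated over 11259 genes. Same-numbered miR-34a-RS and miR-34a-WT libraries correlated at 0.373 to 0.716 (mean 0.555, other pairs -0.134), so the data pair them, although no label explains the numbers.

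The 50 genes, the gene lists and the tests were chosen with earlier results of these data known. Values in every library are given for the largest change among genes that passed with miR-34a-WT in each of 8 roles (2 genes in roles of 7 or more), for every gene that passed between the microRNAs, and for every gene that fell against control. In the other mitotic list, the 2 largest rises and falls with miR-34a-WT are named. The sum over the blood cell markers and the rest of that list are not reported here. Gene positions, exons and 3′ UTRs are from GENCODE 29, and promoters and the microRNA from RefSeq, GRCh38.p14.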

Additional observations from a re-analysis of the deposited data

Results flagged for a closer look

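Each gene's values were examined in each group for a library whose gap to the nearest other exceeded Dixon's 95% limit. The same was done for the median over the 50 genes. This marked 11 of 153 groups of values (150 of genes and 3 of medians), where chance marks about 1 in 20. Control replicate 1 was marked 3 times. It had 76.9 CPM of CDC25B, against 89.4 to 91.7 in the other control libraries, 181 CPM of PLK1, against 198 to 203, and 161 CPM of DLGAP5, against 139 to 143. Replicate 2 of miR-34a-WT was also marked 3 times, with 42.6 CPM of CKS1B (others 33.5 to 35.9), 142 CPM of CKS2 (others 119 to 123) and 135 CPM of FOXM1 (others 149 to 155). In other miR-34a-WT libraries, replicate 1 had 149 CPM of AURKB (others 164 to 170) and replicate 4 had 79.7 CPM of SGO2 (others 88.0 to 91.0). Among miR-34a-RS libraries, replicate 3 had 226 CPM of BUB1 (others 235 to 236), replicate 2 had 59.2 CPM of NDC80 (others 54.4 to 55.2) and replicate 1 had 166 CPM of KIF14 (others 146 to 149).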

How the results depend on the processing

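Against control, counts of G2/M genes that rose stayed between 28 and 35 with miR-34a-RS and between 35 and 39 with miR-34a-WT over all 23 alternatives. Over all tested genes, rises in the same fits ran from 2621 to 4655 with miR-34a-RS and from 3228 to 5226 with miR-34a-WT. Leaving out single libraries gave 28 to 33 rises and 1 to 2 falls with miR-34a-RS, 35 to 37 rises and 1 to 2 falls with miR-34a-WT, and 0 to 1 rises and 0 to 3 falls between the microRNAs. Falls over all genes in those fits numbered 2846 to 3396 with miR-34a-RS and 3328 to 3971 with miR-34a-WT. Between the microRNAs, 111 to 391 of all genes rose and 31 to 339 fell in them. For miR-34a-RS against control, the replicate block gave 2 falls, FOXM1 joining HMMR, and the block with the GC and length offset gave 2, CKS1B joining HMMR. The block changed no other count against control by over 1.5 times. Against control same-numbered libraries correlated at -0.002 to 0.478 with miR-34a-RS (mean 0.274, other pairs -0.07). With miR-34a-WT they correlated at -0.156 to 0.557 (mean 0.291, other pairs -0.071). These means were also above those of other pairs, but lower than between the microRNAs, and some same-numbered pairs were negative. There the numbers were not taken as pairs, although the block fit held them for all 14 libraries, control included. Between the microRNAs, upper-quartile factors gave 1 rise and 0 falls, no filter on low counts 1 rise and 1 fall, DESeq2 1 rise and 6 falls, and the fit of the 2 groups alone 0 falls. The replicate block gave 2 rises and 11 falls, the GC and length offset 4 falls, and the offset with the block 2 rises and 10 falls. Calls over all genes changed too, from 188 higher and 98 lower of 18321 in the main fit. They were 234 and 75 with upper-quartile factors, 259 and 85 of 41463 with no filter, and 279 and 230 by DESeq2. The 2 groups alone gave 154 and 60 of 17796. The block gave 625 and 629, the offset 315 and 407 of 17538, and both together 508 and 896 of 17538. With the GC and length offset, 2 values for miR-34a-WT against control changed sign and passed the edgeR test: HMMR at -0.098, or -0.099 with the block, and INCENP at 0.122, or 0.121 with the block. In the same offset fits PTTG1 and KIF4A passed as rises with miR-34a-WT, and UBE2C, INCENP, BIRC5 and KIF2C with miR-34a-RS. UBE2C and BIRC5 also passed there with the block alone. With no filter CDC25C and AURKA did not pass with miR-34a-RS. The causes were not tested. The stricter filter left NUSAP1 out, whose 10 to 36 counts per library limit its interval.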
